A study of Homo sapiens with 6 samples.

Results

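The aminoacyl-tRNA synthetase genes encode the enzymes that join each amino acid to its transfer RNA. The set held 35 genes, chosen by symbol among the 60856 features listed: 19 encoding enzymes of the cytosol and 16 encoding enzymes of mitochondria. All 35 were matched to 1 Ensembl identifier each, and all 35 passed the filter on low counts. Their values were compared in Jurkat cells, a human T lymphocyte line from a leukemia labelled wild type, between a vehicle group of 3 libraries (0.1% DMSO) and a group of 3 libraries given BPAF at 1 µM. BPAF is bisphenol AF, a fluorinated relative of bisphenol A. The treatment labels and the design text give 12 h of exposure and the treatment protocol gives 24 h, and both groups were grown in the same serum-supplemented medium. Per the labels' protocols, mRNA was captured by its poly(A) tail and read from both ends in libraries that keep strand. Libraries of a group are described as biological replicates, with no word on separate cultures, so p-values measure the spread between these libraries, which may be technical. Every library came from this single cell line, and the labels of the BPAF samples do not say whether they also received DMSO.

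A synthetase activates its amino acid with ATP and transfers it to the matching tRNA, so the accuracy of the genetic code rests on these enzymes. They fall into class I and class II by the fold of the catalytic domain. In human cells several cytosolic synthetases sit in a multisynthetase complex held together by the scaffold proteins AIMP1, AIMP2 and EEF1E1, whereas mitochondria mostly use separate nuclear-encoded enzymes that are imported. GARS1 and KARS1 each encode both the cytosolic and the mitochondrial form, and EPRS1 encodes a fused enzyme for glutamate and proline. Many cytosolic synthetase genes are known targets of ATF4, the transcription factor of the amino acid response, which binds a composite C/EBP-ATF response element (CARE).

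The promoters of the family carried that element unevenly, which is why these sequences are shown. RefSeq windows (GRCh38.p14) from 250 bases before to 50 after a transcript start were found for 30 of the 35 genes. The letters TGATGNAA were searched on both strands. They were found for 7 of 16 cytosolic genes and 1 of 14 mitochondrial genes, against 4.46% of the 27305 genes with a window and 3.62% of the 35116 windows. Each line shows 30 bases, 5′ to 3′ on the gene's strand, with the match in capitals.
AARS1: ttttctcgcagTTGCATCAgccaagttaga
CARS1: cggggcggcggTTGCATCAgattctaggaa
GARS1: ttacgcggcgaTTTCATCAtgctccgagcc
IARS1: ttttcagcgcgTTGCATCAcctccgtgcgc
MARS1: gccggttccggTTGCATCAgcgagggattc
NARS1: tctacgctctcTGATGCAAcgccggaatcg
TARS1: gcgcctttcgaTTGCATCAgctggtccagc
YARS2: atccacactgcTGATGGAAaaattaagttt

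The windows lie at chr16:70289675-70289704 for AARS1, chr11:3057407-3057436 for CARS1, chr9:92293692-92293721 for IARS1, chr18:57621804-57621833 for NARS1 and chr12:32756076-32756105 for YARS2, all on the minus strand. Those on the plus strand lie at chr7:30594834-30594863 for GARS1, chr12:57488053-57488082 for MARS1 and chr5:33440956-33440985 for TARS1. Taking the start base as 0, the first matched base lay at -187 in AARS1, -33 in GARS1, -13 in IARS1, -4 in MARS1, -2 in CARS1, 2 in TARS1, 14 in NARS1 and -197 in YARS2. A match of letters is a description and not a shown binding site. All 7 cytosolic genes on these lines belong to the 12 synthetase genes listed as known ATF4 or CHOP targets. The E-box letters CACGTG, read by MYC and related factors, were found for 1 of the 16 cytosolic genes (IARS1) and 3 of the 14 mitochondrial genes (MARS2, CARS2 and EARS2), against 8.77% of all genes with a window. IARS1 was the 1 member with both motifs, and there they did not overlap.

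The libraries held 20253656 to 22617613 counts, and the level of a gene is given below as CPM (counts scaled to library size with TMM factors). Defining T-cell genes were present, with the 15 markers listed summing to 3826 to 3865 CPM in DMSO and 3693 to 3833 in BPAF and 0 of them called. The 6 B-cell markers summed to 25.1 to 26.1 CPM in DMSO and 23.8 to 24.9 in BPAF, and the 7 monocyte markers to at most 0.778 CPM. The 9 epithelial and fibroblast markers, 5 of them at 0 in all libraries, summed to 3.29 to 3.41 CPM in DMSO and 3.53 to 3.68 in BPAF. Genes with a count above 0 numbered 22712 to 23141 in DMSO and 23404 to 23808 in BPAF. The part of these differences in the results below was not tested.

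Synthetase transcripts changed little with BPAF. Of the 35 genes, 3 fell and 0 rose (edgeR quasi-likelihood test, adjusted p under 0.05), where 3.40% of the 15490 tested genes fell, 2.65% rose and 6.06% were called in either direction. The 3 were TARS1 and KARS1 in the cytosolic list and RARS2 in the mitochondrial list. Thus 8.57% of the family was called, a share near that of all genes. The same 3 genes were called with RLE size factors (5.94% of all genes called), upper quartile scaling (5.56%), no filter (4.28%), a filter at 1 CPM (6.90%), DESeq2 (5.96%, or 4.07% without its independent filtering), limma-voom (5.73%), the replicate number as a block (5.33%) and protein-coding genes only (5.40%). A correction for gene length and GC content (8.80% of genes) added NARS1 and YARS2. With a library left out, the share of all genes called was 3.04%, 5.42% and 3.96% without DMSO replicates 1, 2 and 3, and 2.04%, 4.75% and 2.49% without BPAF replicates 1, 2 and 3. Among the 4042 genes whose average log2 CPM reached 6, where all 19 cytosolic synthetases lie, 12.8% were called, 9.35% fell and 3.41% rose, and 10.5% of the cytosolic synthetases were called. An unadjusted p under 0.05 was found for 9 of the 35 members and for 19.9% of all tested genes. In RNA from whole cultures, fewer cells with a transcript and less of it per cell cannot be told apart.

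The fold changes from counts were mostly slightly below 0, and the deposited TPM values (abundance corrected for transcript length) gave the opposite sign for most members. From counts, 15 of 19 cytosolic and 12 of 16 mitochondrial genes had a log2 fold change below 0, with medians of -0.036 and -0.013. The median was 0.0019 over all tested genes and -0.023 over the genes whose average log2 CPM reached 6, of which 62.3% were below 0. From log2 of TPM plus 1, 16 and 13 genes were above 0, with medians of 0.056 and 0.051, beside a median of 0.078 over all tested genes and 0.065 over the more abundant ones. Of the 35 members, 27 were under the median of all genes from counts and 24 from TPM. Limma on the TPM values called 0 members and 0.00646% of all genes (0.0129% with a pseudocount of 0.1 in place of 1), and an unadjusted p under 0.05 was found for 4 members and 17.5% of all tested genes.

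**Figure D1:**
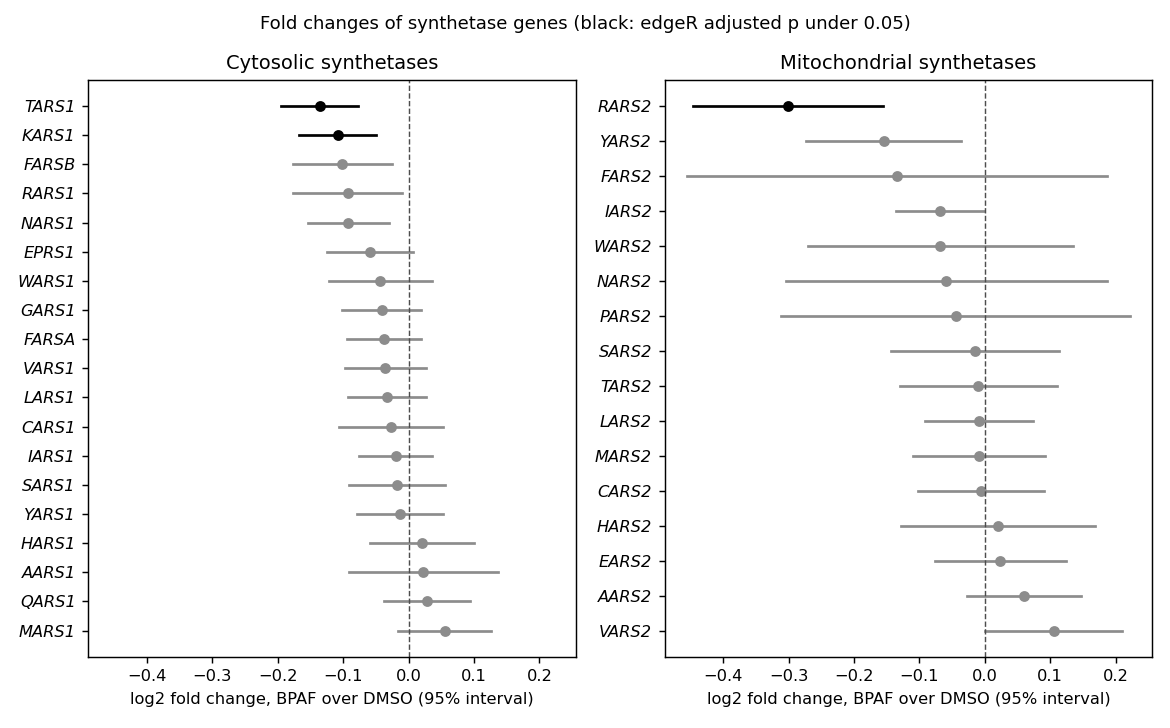
Log2 fold change of each synthetase gene, BPAF over DMSO, from counts (points) with its 95% interval (lines), for 19 cytosolic genes on the left and 16 mitochondrial genes on the right. Black marks the 3 genes called, TARS1, KARS1 and RARS2; the widest intervals are those of FARS2, PARS2 and NARS2.

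TARS1 encodes the cytosolic threonyl-tRNA synthetase, a class II enzyme (ENSG00000113407, GRCh38 chromosome 5, 33440696 to 33469539). Its level was 242.6, 245.5 and 241.4 CPM in the DMSO libraries and 218.9, 223.1 and 222.0 CPM in the BPAF libraries. Every BPAF library was below every DMSO library. The mean fell from 243.2 ± 2.11 to 221.3 ± 2.20 CPM (SD, n = 3), which is -0.14 ± 0.03 as a log2 fold change (SE) or -8.99% (edgeR adjusted p = 0.00718). All its deposited counts were whole. Its call was lost without BPAF replicate 1 (adjusted p = 0.0633) and held in the other 5 fits with a library left out. On TPM its groups overlapped, at 163.4 ± 5.53 and 157.7 ± 13.99, and its call was absent there (limma adjusted p = 0.683). Among the 8 genes with a CARE match, TARS1 was the 1 that was called, or 12.5%. Of the 22 with a window and no match, 2 were called (KARS1 and RARS2), or 9.09%. Over all tested genes the share called was 6.06%.

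KARS1 encodes the lysyl-tRNA synthetase of both compartments, a class II enzyme and a member of the multisynthetase complex (ENSG00000065427, chromosome 16, 75627474 to 75648643). It stood at 367.7, 372.4 and 361.3 CPM with DMSO and at 336.7, 347.6 and 337.2 CPM with BPAF. The groups did not overlap. The log2 fold change was -0.11 ± 0.03 (SE), or -7.26% (edgeR adjusted p = 0.0256). This call was the least stable of the 3: it was lost without DMSO replicate 1 (adjusted p = 0.0925), DMSO replicate 2 (0.0648), BPAF replicate 1 (0.150) or BPAF replicate 3 (0.0930). On TPM the means were 274.0 ± 11.2 and 272.1 ± 3.84, and the groups overlapped. The gene overlaps TERF2IP on the opposite strand by 858 bases, and whether the authors' counting used strand was not given in the sources used here.

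RARS2 encodes the mitochondrial arginyl-tRNA synthetase, a class I enzyme (ENSG00000146282, chromosome 6, 87514378 to 87590003). Levels were 31.8, 30.3 and 29.4 CPM in DMSO and 26.2, 22.2 and 25.9 CPM in BPAF. All BPAF libraries were below all DMSO libraries, and BPAF replicate 2 was the lowest. The mean was 30.5 ± 1.25 CPM with DMSO and 24.7 ± 2.24 with BPAF, and the log2 fold change -0.30 ± 0.07 (SE) or -18.8% (edgeR adjusted p = 0.0138). This was the largest fold change among the 35 members. It lost its call without DMSO replicate 1 (adjusted p = 0.0808, log2 fold change -0.27) or BPAF replicate 2 (adjusted p = 0.0622, log2 fold change -0.23). On TPM the direction was the same (log2 fold change -0.22, limma adjusted p = 0.340), with overlapping groups. Its cytosolic counterpart RARS1 was at 100.3, 96.5 and 95.1 CPM in DMSO and 87.9, 94.2 and 91.7 CPM in BPAF. These groups did not overlap either, and RARS1 did not pass (log2 fold change -0.09 ± 0.04, edgeR adjusted p = 0.187).

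**Figure D2:**
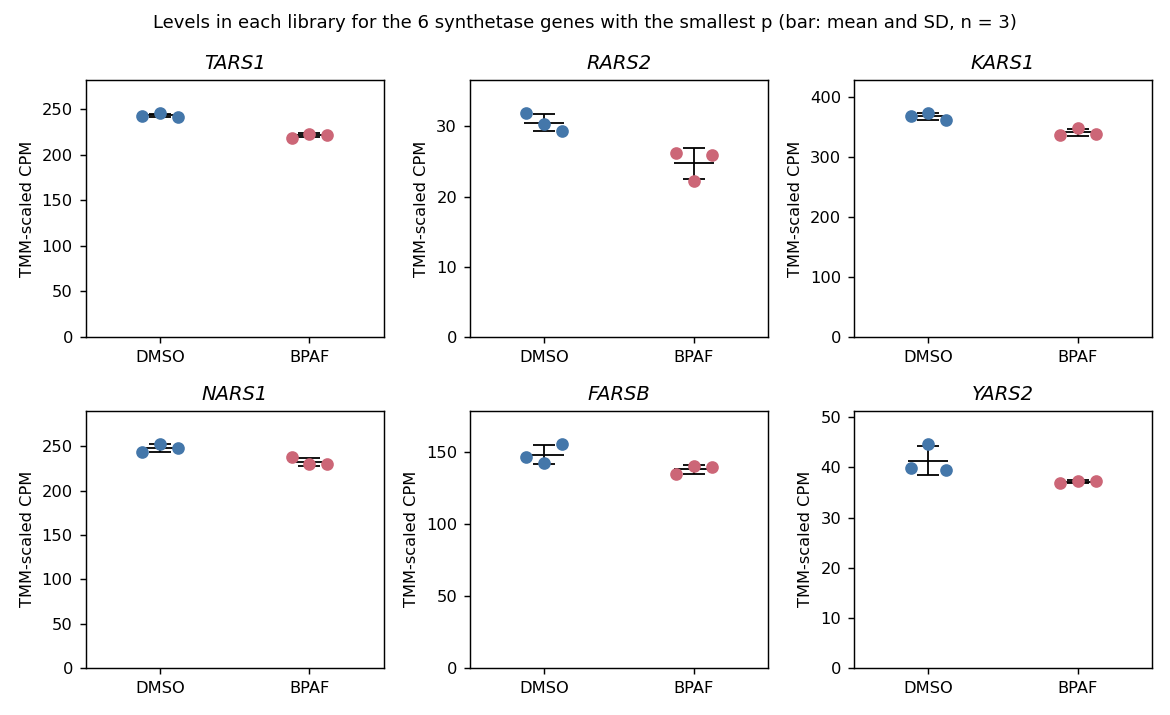
TMM-scaled CPM in each of the 6 libraries for the 6 synthetase genes with the smallest p, with the mean and SD of 3 libraries. TARS1, RARS2 and KARS1 were called; NARS1, FARSB and YARS2 were not, although their groups did not overlap either.

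Several other members had separated groups without being called. By CPM, groups did not overlap for 13 of the 35 genes, 12 lower and 1 higher in BPAF, whereas by TPM 0 were separated lower and 10 higher. The background for tested genes by CPM was 12.8% lower, 12.0% higher and 24.8% in either direction, and by TPM 3.50%, 21.0% and 24.5%. Where the average log2 CPM reached 6, the background by CPM was 25.8% lower, 10.0% higher and 35.7% in either direction. Cytosolic genes made up 9 of the 12 that were lower.

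NARS1, the cytosolic asparaginyl-tRNA synthetase of class II, was at 243.4, 252.5 and 248.1 CPM in DMSO and 238.0, 229.5 and 230.4 CPM in BPAF. Its log2 fold change was -0.09 ± 0.03 (SE, edgeR adjusted p = 0.0704), and a fit corrected for gene length and GC content brought it under the threshold (adjusted p = 0.0377). FARSB, the beta subunit of cytosolic phenylalanyl-tRNA synthetase, stood at 146.3, 142.2 and 155.2 CPM in DMSO and at 134.3, 140.2 and 139.0 CPM in BPAF (log2 fold change -0.10 ± 0.04, adjusted p = 0.110). DMSO replicate 3 was the highest of the 6 libraries for this gene. YARS2, the mitochondrial tyrosyl-tRNA synthetase, was at 39.9, 44.6 and 39.5 CPM in DMSO and 36.9, 37.2 and 37.4 CPM in BPAF (log2 fold change -0.15 ± 0.06, adjusted p = 0.119, or 0.0207 with the length and GC offset). None of its deposited counts were whole, and the gene overlaps DNM1L on the opposite strand by 18161 bases.

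IARS2, the mitochondrial isoleucyl-tRNA synthetase, was at 185.5, 185.3 and 192.9 CPM in DMSO and 180.5, 173.0 and 183.6 CPM in BPAF (change of -0.07 ± 0.03 in log2, edgeR adjusted p = 0.237). The separation between its groups was small, with BPAF replicate 3 just below DMSO replicate 2. EPRS1, the fused glutamyl-prolyl enzyme, was at 249.9, 247.7 and 233.2 CPM in DMSO and 234.2, 237.2 and 230.4 CPM in BPAF, with overlapping groups (log2 fold change -0.06 ± 0.03, adjusted p = 0.315). GARS1, the glycyl-tRNA synthetase of both compartments, was at 268.9, 272.7 and 265.4 CPM in DMSO and 256.2, 265.3 and 262.8 CPM in BPAF (log2 fold change -0.04 ± 0.03, adjusted p = 0.470). Its BPAF replicate 2 lay just under DMSO replicate 3. GARS1 overlaps its divergent transcript GARS1-DT by 129 bases.

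VARS2, the mitochondrial valyl-tRNA synthetase, was the 1 member whose groups were separated upward by CPM, and 1 of 10 by TPM. It stood at 68.3, 78.2 and 78.8 CPM in DMSO and at 80.3, 82.6 and 79.2 CPM in BPAF, with DMSO replicate 1 well under the others. The log2 fold change was 0.11 ± 0.05 (SE, edgeR adjusted p = 0.248), and without DMSO replicate 1 it was 0.039 (adjusted p = 0.725). On TPM its groups did not overlap either, at 38.6 ± 3.20 and 45.8 ± 1.32 (log2 fold change 0.24, limma adjusted p = 0.161). Most of its deposited counts were fractional, and it overlaps GTF2H4 on the same strand by 5865 bases, so its counts are uncertain. MARS1, the cytosolic methionyl-tRNA synthetase of the multisynthetase complex, was at 269.4, 276.4 and 253.3 CPM in DMSO and 279.8, 283.2 and 267.5 CPM in BPAF, with overlapping groups (log2 fold change 0.06 ± 0.03, adjusted p = 0.397). MARS1 overlaps ARHGAP9 by 13370 bases and DDIT3, which encodes the stress factor CHOP, by 982 bases, both on the opposite strand.

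From counts, the remaining genes bounded the response more than they showed one. These bounds do not cover the TPM values, whose median log2 fold change over all tested genes was 0.078. For some members the TPM fold change lay above the count interval. That of EPRS1 was 0.12 against an upper limit of 0.0069, and that of WARS1 0.14 against 0.035. Over the 32 members not called, log2 fold changes ran from -0.15 to 0.11 and adjusted p from 0.0704 to 0.971. The 95% intervals of the 17 uncalled cytosolic genes reached from -11.6% to 9.90%. For all 19 cytosolic genes the interval stayed within 20% of no change, and for 14 of them within 10%. The mitochondrial intervals were wider, and for the 15 uncalled genes they reached down to -27.1% and up to 16.7%. Of the 16 mitochondrial genes, 14 had an interval within 20%, the exceptions being RARS2 and FARS2, and 7 had one within 10%. Standard errors on the log2 scale ran from 0.027 to 0.051 in the cytosolic list and from 0.032 to 0.14 in the mitochondrial list.

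The libraries of a group varied more for mitochondrial than for cytosolic genes. Mitochondrial genes also had lower counts, 151 to 4216 a library against 1756 to 10305, and the part of level in this difference was not tested. The coefficient of variation over the DMSO libraries had a median of 1.82% for cytosolic and 4.96% for mitochondrial genes, and over the BPAF libraries 1.80% and 3.59%. LARS1, the cytosolic leucyl enzyme, varied least in DMSO, by 0.733%, at 287.9, 291.7 and 288.1 CPM. FARS2, the mitochondrial phenylalanyl enzyme, varied most, by 20.7%, at 22.8, 27.5 and 18.0 CPM against 21.8, 20.9 and 19.5 CPM in BPAF. Among cytosolic genes AARS1, the alanyl enzyme, varied most in DMSO, by 7.89%, with DMSO replicate 3 at 232.2 CPM below the other libraries, which lay between 252.4 and 270.1 CPM.

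Cytosolic synthetases were the more abundant group per length. In DMSO their mean TPM ran from 45.4 to 361, with a median of 127, and that of mitochondrial synthetases from 5.21 to 75.8, with a median of 27.7. The highest was FARSA, the catalytic alpha subunit of the phenylalanyl enzyme, at 356, 367 and 358 TPM in DMSO and 386, 365 and 390 TPM in BPAF. It was followed by KARS1 at 274.0 ± 11.2 and MARS1 at 250.2 ± 25.5 TPM, whose levels did not differ beyond their spread. The lowest cytosolic gene was FARSB, at 45.1, 44.7 and 46.5 TPM in DMSO and 43.9, 45.1 and 46.1 TPM in BPAF. The 2 subunits build 1 enzyme in equal numbers, yet the TPM of FARSA was 7.94 ± 0.26 times that of FARSB in DMSO and 8.44 ± 0.35 times in BPAF (SD, n = 3). In CPM, which is not scaled for length, FARSA was at 410.4 ± 6.13 and FARSB at 147.9 ± 6.64 in DMSO.

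Among mitochondrial genes IARS2 was the highest, at 75.2, 76.3 and 75.8 TPM in DMSO and 79.9, 73.8 and 79.9 TPM in BPAF. Next came CARS2, the cysteinyl enzyme, at 71.5, 74.96 and 63.7 TPM in DMSO, each below every DMSO library of IARS2. PARS2, the prolyl enzyme, was the lowest member at 4.37, 5.35 and 5.91 TPM in DMSO and 5.16, 5.17 and 5.76 TPM in BPAF, with 151 to 198 counts a library. WARS2, the tryptophanyl enzyme, was the next lowest at 6.16 ± 0.31 TPM in DMSO and 6.98 ± 0.57 in BPAF.

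Partners that charge the same amino acid in the 2 compartments differed widely in their balance. Over 14 such pairs the ratio of cytosolic to mitochondrial TPM in DMSO had a median of 3.65. It was highest for phenylalanine, with FARSA at 17.0 ± 4.42 times FARS2, and for tryptophan, with WARS1 at 16.6 ± 1.21 times WARS2. Methionine followed, with MARS1 at 10.1 ± 1.13 times MARS2. The rank of phenylalanine rests on FARSA, the 1 subunit used for the cytosolic enzyme. Its other subunit FARSB stood at 45.4 ± 0.94 TPM in DMSO, against 22.1 ± 5.63 for FARS2 (SD, n = 3). The ratio was lowest for cysteine, where CARS1 stood at 0.717 ± 0.04 of CARS2, the pair in which the mitochondrial transcript had the higher TPM in all 6 libraries. Isoleucine was next, with IARS1 at 1.97 ± 0.03 times IARS2. By CPM the order for cysteine was the reverse in all 6 libraries. CARS1 was at 89.1 ± 1.43 and CARS2 at 71.7 ± 4.05 CPM in DMSO (SD, n = 3). Their annotated exon lengths were 10037 and 10460 bases, and the cause of this difference between TPM and CPM was not tested. In BPAF the ratio for valine was 2.25 ± 0.01 against 2.60 ± 0.09 in DMSO, and that for arginine 4.05 ± 0.65 against 3.37 ± 0.17; the other pairs are plotted by library.

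**Figure D3:**
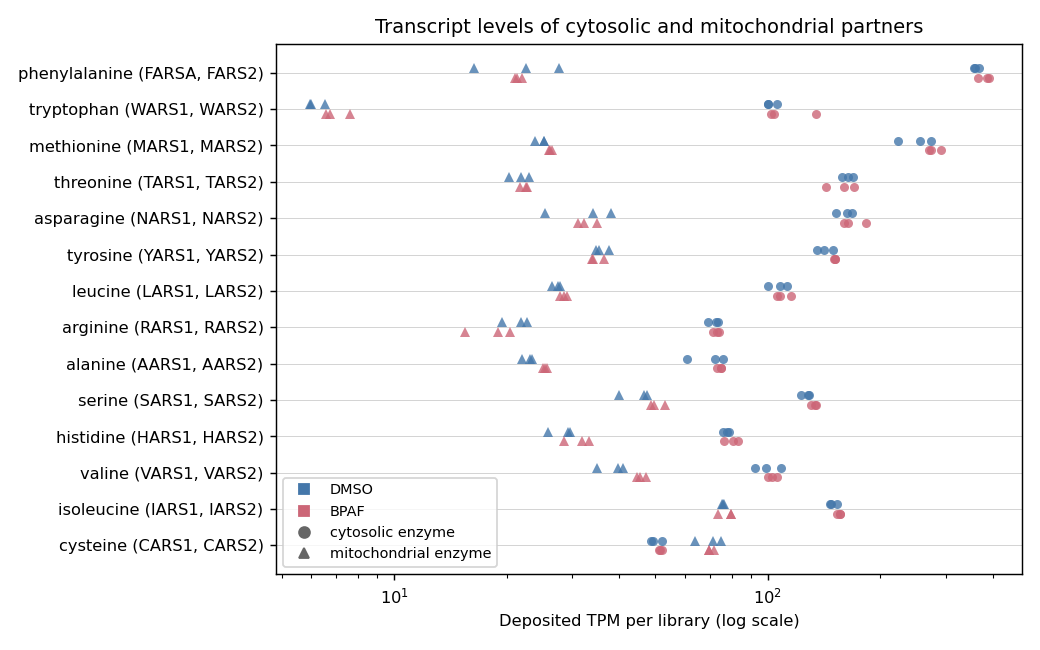
Deposited TPM of cytosolic (circles) and mitochondrial (triangles) synthetases for 14 amino acids, each point 1 library, DMSO in blue and BPAF in red, on a log axis. The cytosolic gene for phenylalanine is FARSA. Circles lie to the right of triangles in every pair but cysteine, and DMSO and BPAF points mostly overlap.

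Summed over the 19 cytosolic genes, the level was 4375, 4384 and 4293 CPM in DMSO and 4243, 4251 and 4214 CPM in BPAF, lower in every BPAF library. The TPM sum went the other way, from 2709, 2725 and 2653 in DMSO to 2843, 2766 and 2842 in BPAF. The 16 mitochondrial genes summed to 889.9 ± 14.8 CPM in DMSO and 875.1 ± 6.66 in BPAF, and to 507.8 ± 18.6 and 529.9 ± 9.09 TPM. The sign of the difference in these sums thus differed between the deposited tables, with the median of all tested genes at 0.0019 from counts and 0.078 from TPM (log2).

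**Figure D4:**
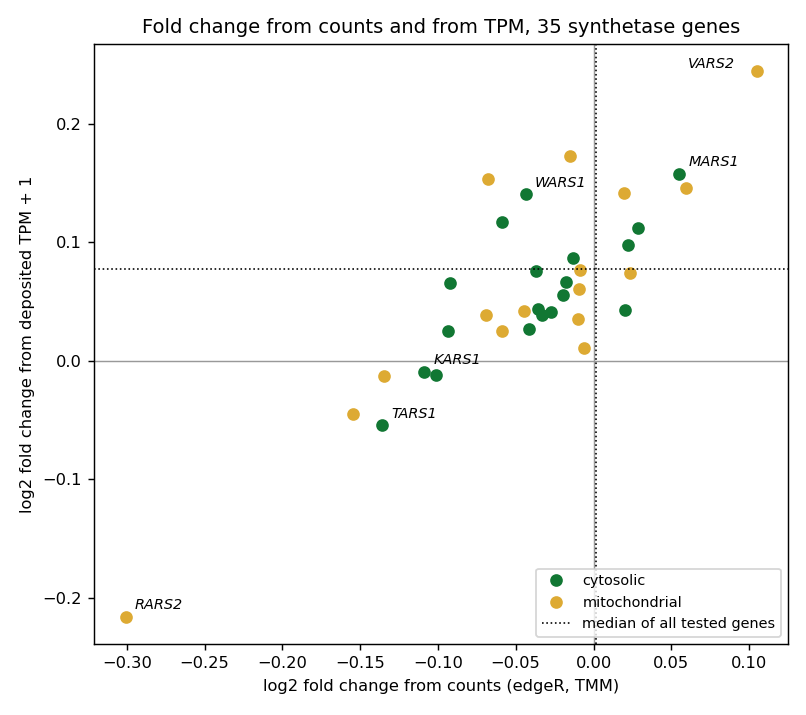
Log2 fold change of the 35 synthetase genes from counts (x axis) and from deposited TPM plus 1 (y axis), with dotted lines at the median of all tested genes on each scale. Most points lie left of 0 on x and above 0 on y; RARS2 is lowest on both axes and VARS2 highest on both.

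The 2 tables also disagreed gene by gene. For each library, log2 of TPM over CPM was centred on the library's median over 15412 genes and on the gene's own mean, so that a fixed gene length would give 0 throughout. The range over the 6 libraries was 0.004 for FARSB and 0.006 for PARS2, but 0.488 for MARS1 and 0.481 for WARS1, the cytosolic tryptophanyl enzyme. The median range over all tested genes was 0.155, and 16.6% of genes had a range at least as wide as that of WARS1. In WARS1, BPAF replicate 1 stood out: its TPM was 134.5 against 100.1 to 106.0 in the other 5 libraries, while its CPM of 96.6 was the lowest of the 6. In MARS1, DMSO replicate 2 was at -0.256 and DMSO replicate 3 at 0.232. The method behind the TPM values was not given in the sources used here, and the cause of these differences was not tested.

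**Figure D5:**
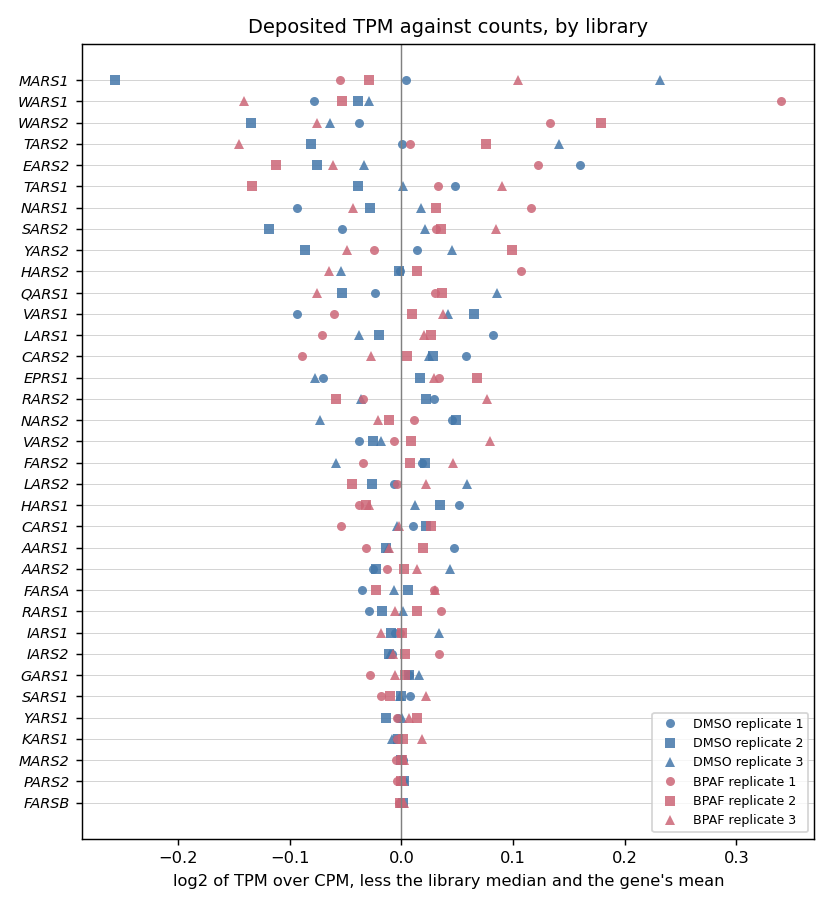
Log2 of deposited TPM over CPM for each synthetase gene and library, centred on the library median and on the gene's mean, with genes ordered by range. Points of FARSB, PARS2 and MARS2 fall together, whereas MARS1 and WARS1 spread over nearly 0.5; BPAF replicate 1 of WARS1 lies farthest right.

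Sorted by structure and complex, each group held 1 or 2 of the calls, beside 6.06% of all tested genes called and 3.40% lower. Of 18 class I genes 1 fell (RARS2; median log2 fold change -0.024), and of 16 class II genes 2 fell (TARS1 and KARS1; median -0.039). EPRS1, whose fused enzymes belong to different classes, was left out of both. Of the 7 synthetases of the multisynthetase complex, KARS1 was the 1 that fell, and the median was -0.033. Of the 12 synthetases listed as ATF4 or CHOP targets, TARS1 was the 1 that fell, and the median was -0.030. The 8 genes with a CARE match had a median of -0.034 and the 22 without it -0.040. Beside these, the median from counts was 0.0019 over all tested genes and -0.023 over those whose average log2 CPM reached 6.

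By CPM the scaffolds of the complex were lower in every BPAF library than in any DMSO library, whereas on TPM the groups of all 3 overlapped. By CPM, 12.8% of all tested genes were separated in that direction. EEF1E1, also called AIMP3, was at 58.4, 52.4 and 62.9 CPM in DMSO and 51.3, 50.5 and 48.3 CPM in BPAF, and fell (log2 fold change -0.21 ± 0.06, edgeR adjusted p = 0.0362). All its deposited counts were fractional. This call held in 1 of 6 fits with a library left out, that without DMSO replicate 2, and was lost without each other library (adjusted p from 0.0767 to 0.155). It was also lost with the replicate number as a block (0.0540), upper quartile scaling (0.0510), DESeq2 without independent filtering (0.0643) and TPM (0.356). AIMP1 was at 110.4 ± 3.84 and 104.7 ± 0.72 CPM (log2 fold change -0.08, adjusted p = 0.255) and AIMP2 at 46.1 ± 1.55 and 42.6 ± 1.58 CPM (log2 fold change -0.11, adjusted p = 0.214), and neither passed. EEF1E1 was the 1 called gene of 16 tested in the list of scaffold, proofreading and amidotransferase partners. That is 6.25%, beside 6.06% of all tested genes, and the list median was -0.044.

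Other steps in the life of a tRNA gave similarly few calls, beside 6.06% of all tested genes called. Of 45 genes for tRNA transcription, end processing and export, 2.22% were called. RTCB, the ligase that joins the exons of spliced tRNA, was the 1 that fell. It was at 161.4, 160.4 and 162.6 CPM in DMSO and 145.9, 156.7 and 141.5 CPM in BPAF (change of -0.13 ± 0.04 in log2, edgeR adjusted p = 0.0430; list median -0.023). RTCB held its call without BPAF replicate 2 and lost it without each other library (adjusted p from 0.0664 to 0.200), with the replicate block (0.0506), with upper quartile scaling (0.0676), with protein-coding genes only (0.0621) and with DESeq2 (0.0761). Of 63 tested genes for tRNA base modification, 2 fell and 1 rose, or 4.76% called (list median -0.018). TRMT112, a partner subunit of several tRNA methyltransferases, fell by 0.16 on the log2 scale (adjusted p = 0.0165), a call lost without DMSO replicate 1 (0.0888) or BPAF replicate 3 (0.100). TRUB1, a pseudouridine synthase, fell by 0.18 (adjusted p = 0.0397), and passed without BPAF replicate 2 but in no other fit with a library left out (adjusted p up to 0.216). TRUB1 was also not called with upper quartile scaling (0.0548), protein-coding genes only (0.0529) or DESeq2 (0.0839). WDR4, the non-catalytic subunit of the tRNA m7G methyltransferase, rose from 151.9, 143.6 and 153.1 CPM to 164.6, 163.9 and 161.5 CPM (log2 fold change 0.13 ± 0.03, adjusted p = 0.0267). Its call held without DMSO replicate 3 and was lost without each other library (adjusted p from 0.0624 to 0.129), with DESeq2 without independent filtering (0.0614) and with the correction for gene length and GC content (0.114). On TPM none of RTCB, TRMT112, TRUB1 and WDR4 was called.

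In the amino acid response, the pathway that acts on many synthetase genes, 3 of 39 tested genes fell and 0 rose, or 7.69%. Of all tested genes, 3.40% fell and 6.06% were called in either direction. Among the genes whose average log2 CPM reached 6, 9.35% fell. ATF4 itself was at 447.1, 442.5 and 447.8 CPM in DMSO and 395.4, 406.9 and 376.8 CPM in BPAF, with no overlap (log2 fold change -0.18 ± 0.03, edgeR adjusted p = 0.00155). SLC38A2, an amino acid transporter, was at 277.6, 269.6 and 277.5 CPM in DMSO and 244.5, 248.3 and 248.6 CPM in BPAF (log2 fold change -0.15 ± 0.03, adjusted p = 0.00313). PPP1R15A, a phosphatase subunit that reverses the stress signal, fell by 0.31 (adjusted p = 0.0165), a call lost when DMSO replicate 3 (0.0795), BPAF replicate 1 (0.0827) or BPAF replicate 3 (0.0590) was left out. The calls of ATF4 and SLC38A2 held in each of the 6 fits with a library left out. Neither passed on TPM (limma adjusted p = 0.211 and 0.476).

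ASNS, TRIB3 and DDIT3, given whatever their values, did not pass. ASNS, the asparagine synthetase that makes the amino acid charged by NARS1, was at 13.2, 14.2 and 14.7 CPM in DMSO and 12.6, 12.7 and 14.2 CPM in BPAF (change of -0.08 ± 0.09 in log2, edgeR adjusted p = 0.671). TRIB3, a pseudokinase, was at 34.6 ± 0.51 CPM against 34.1 ± 1.86 CPM (adjusted p = 0.868). DDIT3 was at 10.8, 10.9 and 11.2 CPM against 10.4, 10.1 and 9.67 CPM (log2 fold change -0.13 ± 0.10, adjusted p = 0.513). Groups overlapped for ASNS and TRIB3 and not for DDIT3. The median of the list was -0.038.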

How the data were processed

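The 6 Jurkat libraries comprised 3 exposed to DMSO and 3 to BPAF. The authors deposited estimated counts per gene, with decimals, and TPM. Per the submitters' processing notes the tools were HISAT2, featureCounts, cutadapt and FastQC, with builds GRCh38 and hg38 and no versions; the origin of the decimals and of the TPM was not given in the sources used here. Identifiers were named from a table of gene symbols (42028 with a symbol), and coordinates, exon length and GC content came from GENCODE release 29 (GRCh38). Assembled loci without a gene identifier (192) held 0.253% of counts on average; they stayed in the library totals and the fit.

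Estimated counts were rounded to whole numbers, giving 20253656 to 22617613 per library, and passed through filterByExpr and TMM scaling. The quasi-likelihood test was that of edgeR 4.0.16 under R 4.3.3 (robust, no covariate). Benjamini-Hochberg adjustment covered all 15490 tested genes, and 0.05 was the threshold. The SE is the log2 fold change divided by the square root of F, and 95% intervals use the moderated degrees of freedom. The biological coefficient of variation was 3.77%. Alternatives used limma 3.58.1, including log2 of the deposited TPM plus 1 or 0.1, and DESeq2 1.42.0. The test was checked on simulated counts, with 200 genes changed by a fold of 1.2, 1.5 or 2. It recovered 70.5%, 96.5% and 99.5% of them, and 3.42%, 6.76% and 4.78% of its calls were false. Smaller changes, such as those of TARS1 and KARS1, were not simulated. Values in every library are given for the members called, the 12 with the smallest p and the highest and lowest TPM of each list. Companion genes named are those called, plus ATF4, ASNS, AIMP1, AIMP2, EEF1E1, DDIT3 and TRIB3. A few further members and companion genes were named after their values were seen. The members and lists were chosen with earlier results of these data known, and the comparison with genes whose average log2 CPM reached 6 was added after seeing the data. Summaries used Python 3.11.15.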

Additional observations from a re-analysis of the deposited data

How the results depend on the processing

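The calls of TARS1, KARS1 and RARS2 held with RLE size factors, upper quartile scaling, no filter, a CPM filter, DESeq2 with and without independent filtering, limma-voom, the length and GC offset, and, added after seeing the data, protein-coding genes only and counts rounded down. The offset raised the mitochondrial count from 1 to 2 (YARS2) and the cytosolic count from 2 to 3 (NARS1). Limma on TPM called 1 gene in all (pseudocount 1) or 2 (0.1), against 938 in edgeR, and 0 cytosolic and 0 mitochondrial synthetases; the cause was not tested. With 1 library left out, 322 to 861 genes were called, 0 to 2 of them cytosolic and 0 to 1 mitochondrial synthetases; the lowest count, 322, came from omitting BPAF replicate 1; omitting BPAF replicate 3 gave 392 and omitting DMSO replicate 1 gave 482. In those fits 21 of the 35 members kept the sign of their fold change. The balance of all calls was 411 higher and 527 lower, 461 and 400 with upper quartile scaling, and 305 and 1026 with the offset.

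Same-numbered DMSO and BPAF libraries did not deviate together: the correlations of their deviations were -0.0010, -0.051 and 0.010. The deviations were centred within each group of 3 libraries, so these values are not independent. They do not show whether the libraries were paired by design. With the replicate number as a block, 826 genes were called, and the calls of TARS1, KARS1 and RARS2 held.

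Some signs turned, those of NARS1, RARS1 and IARS2 from -0.092, -0.093 and -0.069 on counts among them. On TPM plus 1, and plus 0.1 where a second value is given, log2 fold changes were above 0 for CARS1 (0.041 or 0.042), EPRS1 (0.12), FARSA (0.076), GARS1 (0.027), IARS1 (0.056), LARS1 (0.038 or 0.039), NARS1 (0.065 or 0.066), RARS1 (0.025), SARS1 (0.066 or 0.067), VARS1 (0.044), WARS1 (0.14), YARS1 (0.087), CARS2 (0.011), IARS2 (0.038 or 0.039), LARS2 (0.060 or 0.062), MARS2 (0.077 or 0.079), NARS2 (0.025 or 0.027), PARS2 (0.042 or 0.050), SARS2 (0.17 or 0.18), TARS2 (0.035 or 0.037), WARS2 (0.15 or 0.17), ASNS (0.13 or 0.14), AIMP1 (0.021) and TRIB3 (0.051 or 0.053). With upper quartile scaling they were above 0 for CARS2 (0.0050), LARS2 (0.0015), MARS2 (0.0020) and TARS2 (0.0011), with protein-coding genes only for CARS2 (0.0055), LARS2 (0.0020), MARS2 (0.0025) and TARS2 (0.0017), and with the offset below 0 for AARS1 (-0.0056), HARS1 (-0.022), EARS2 (-0.015) and HARS2 (-0.023). Ranges over fits with 1 library left out crossed 0 for AARS1 (-0.043 to 0.065), HARS1 (-0.014 to 0.050), SARS1 (-0.037 to 0.017), YARS1 (-0.033 to 0.018), CARS2 (-0.049 to 0.030), EARS2 (-0.014 to 0.056), FARS2 (-0.28 to 0.016), HARS2 (-0.053 to 0.092), LARS2 (-0.037 to 0.012), MARS2 (-0.040 to 0.021), NARS2 (-0.16 to 0.047), PARS2 (-0.16 to 0.076), SARS2 (-0.093 to 0.031), TARS2 (-0.044 to 0.014) and TRIB3 (-0.054 to 0.020). None of these genes was called in the fit reported; NARS1 was called with the offset. The depth of 151 to 198 counts for PARS2 limits what could be seen there.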

Other observations

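Mitochondria have no glutaminyl-tRNA synthetase of their own: EARS2 charges the glutamine tRNA with glutamate, and the amidotransferase of GATB, GATC and QRSL1 then converts it. These 4 transcripts, chosen after their values were seen, did not pass. EARS2 stood at 54.8 ± 0.73 CPM with DMSO and 55.6 ± 2.71 with BPAF (SD, n = 3; log2 fold change 0.02, edgeR adjusted p = 0.851). GATB was at 40.6 ± 2.96 and 38.5 ± 3.51 CPM (adjusted p = 0.595), GATC at 66.0 ± 3.97 and 62.2 ± 1.16 (adjusted p = 0.337), and QRSL1 at 56.6 ± 2.32 and 55.8 ± 2.02 (adjusted p = 0.878). By CPM all 4 had overlapping groups. MTFMT, which formylates the initiator methionyl-tRNA of mitochondria, was at 20.6 ± 1.58 and 20.5 ± 0.90 CPM (adjusted p = 0.982).

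HARS1 and HARS2, the cytosolic and mitochondrial histidyl enzymes, lie head to head on chromosome 5 and overlap by 437 bases on opposite strands. HARS1 stood at 124.3 ± 5.38 CPM with DMSO and 126.0 ± 3.82 with BPAF (SD, n = 3), and HARS2 at 47.1 ± 4.74 and 47.7 ± 3.23. Neither passed (edgeR adjusted p = 0.839 and 0.925), and neither gene had a whole deposited count in any library, so the 2 levels are uncertain. At least 1 fractional count was found for 18 of the 35 members, and a link between fractional counts and overlapping genes was not tested. TARS3, a second cytosolic threonyl enzyme and a paralogue of TARS1, was at 28.4 ± 2.15 and 28.4 ± 1.64 CPM (adjusted p = 0.996), while TARS1 fell; the difference between them was not tested. WDR4 rose, whereas its catalytic partner METTL1 was at 12.4 ± 0.72 and 12.5 ± 2.05 CPM (adjusted p = 0.9752), and this difference was not tested either.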
